A study of Homo sapiens with 18 samples.

Results

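The 6 libraries whose titles carry the number 12 were compared with the 12 libraries numbered 13 or 14, in a set of 18 bulk RNA-seq libraries of LX-2. LX-2 is an immortalised line of human hepatic stellate cells, the pericyte-like cells of the liver sinusoid. The libraries were chosen by the number in the title alone, and 1 library of each number stood in each of 6 groups, which were thrombin and control at 4 h, thrombin and control at 24 h, and thrombin and control at 48 h. All cells were subcultured LX-2 that had 1 h without serum first, thrombin groups then had the clotting protease at 1 U/mL, and control groups stayed in serum-free medium. Libraries were made from poly(A)-enriched RNA. The meaning of the letter p before the number is not stated in the labels, nor whether libraries with the same number came from 1 culture, so the p-values measure only how these libraries vary, and that variation may be technical. Groups are named as labelled: of 961 genes called for thrombin against control at both 4 h and 24 h, 948 had opposite signs at the 2 times.

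Quiescent stellate cells store retinoids. On activation they become myofibroblasts, which secrete fibrillar and basement membrane collagens, respond to platelet-derived growth factor and carry markers such as NGFR, the p75 neurotrophin receptor.

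Library totals were 14649813 to 20955646 counts for number 12 and 14431044 to 23270601 for numbers 13 and 14. The mean difference within groups had an exact two-sided permutation p of 0.734 (6 against 12 libraries). The number of genes detected (p = 0.597 by the same exact test) and the slope of expression on transcript GC content (p = 0.742, exact test) did not pass the test either, which does not show that they were equal. Marker levels were taken as CPM of each library's total, without TMM scaling. Stellate markers were present, with VIM at 3591 CPM and COL1A1 at 2268 CPM on average, while DCN was under 0.1 CPM. Of the hepatocyte list, 14 of 20 markers, ALB among them, averaged under 0.1 CPM, and the summed list was 8.11 to 11.0 CPM in number 12 and 6.71 to 11.4 CPM in 13 and 14. The summed macrophage list, most of it CD68, was 68.5 to 91.4 CPM in number 12 and 78.3 to 101.7 CPM in 13 and 14, with 12 of 19 markers under 0.1 CPM. The endothelial list summed to 107.3 to 155.4 CPM in number 12 and 124.6 to 162.6 CPM in 13 and 14. Its highest members were EGFL7, TIE1 and VWF, at 63.4, 35.2 and 14.5 CPM on average. The epithelial list summed to 369.6 to 501.0 CPM in number 12 and 375.4 to 583.2 CPM in 13 and 14. The ranges of all 4 lists overlapped. SOX9, a member of the epithelial list that stellate cells can also express, was itself lower in number 12 (log2 fold change -0.33, edgeR adjusted p = 0.0265). Of the same list, KRT8, KRT18 and ANXA4 averaged 133.3, 70.1 and 50.4 CPM, while EPCAM and CDH1 averaged under 0.1 CPM.

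With the treatment and time group as a block, 84 of 15353 genes tested differed between number 12 and numbers 13 and 14 (edgeR adjusted p under 0.05; 0.547% of genes), 29 higher in number 12 (0.189%) and 55 lower (0.358%). Genes called higher included the collagen chains COL3A1, COL1A2, COL5A3 and COL4A1, the receptor gene PDGFRB, the chemokine gene CXCL12 and the imprinted gene MEST. Genes called lower included NGFR, the chromatin protein gene HMGA2, the cyclin gene CCND1 and the MAPK-linked genes PHLDA1, ETV4 and SPRY2. Most differences were under 1.5-fold. The median log2 fold change was 0.37 for the genes called higher and -0.40 for those called lower, and 17 of the 84 differed at least 1.5-fold and 3 at least 2-fold. The 3 were SERPINB2, MMP1 and SYCP2L, named after their values were seen. SYCP2L was near the floor, at 0.58 to 1.05 CPM in number 12 and 0.09 to 0.64 CPM in 13 and 14. Its log2 difference was positive in all 6 groups but only 0.02 at control 48 h. For scale, thrombin against control was called for 1813 genes at 4 h (11.8%), 965 higher (6.29%) and 848 lower (5.52%), and for 2700 at 24 h (17.6%), 1389 higher (9.05%) and 1311 lower (8.54%). At 48 h edgeR called 0 genes (0%), with 1110 at an unadjusted p under 0.05 and 14 called by DESeq2.

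Of the 84 genes, 58 were also ordered the same way in every group, with the number 12 library above both others in all 6 groups for 23 genes (0.15% of genes tested) and below both in all 6 for 35 genes (0.228%). With no test, 71 genes lay above both in all 6 groups (0.462%) and 81 lay below both (0.528%). The sign of the group difference was the same in all 6 groups for 80 of the 84. When each group was left out in turn, the genes called in the other 5 had the same direction in the left-out group in 173 of 197 cases (87.8%), against 47.4% over all genes. The same gene can count in several of these splits, which share groups, so the cases are not independent. The share was lowest for control 48 h, at 67 of 87, and for thrombin 4 h, thrombin 24 h and control 24 h it was 21 of 21, 13 of 13 and 33 of 33. The calls leaned on single libraries. The total was 7 genes without thrombin 24 h replicate 12, 33 without thrombin 4 h replicate 12, 27 without control 4 h replicate 12, 24 without thrombin 48 h replicate 12 and 45 without control 24 h replicate 12, of which 7, 32, 22, 23 and 42 were among the 84. It was 41 without thrombin 24 h replicate 14, 42 without thrombin 48 h replicate 14 and 44 without control 24 h replicate 14, with 40, 42 and 44 among the 84. All 84 kept their direction in each of these fits, which reuse most of the libraries by which the 84 were chosen.

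**Figure D1:**
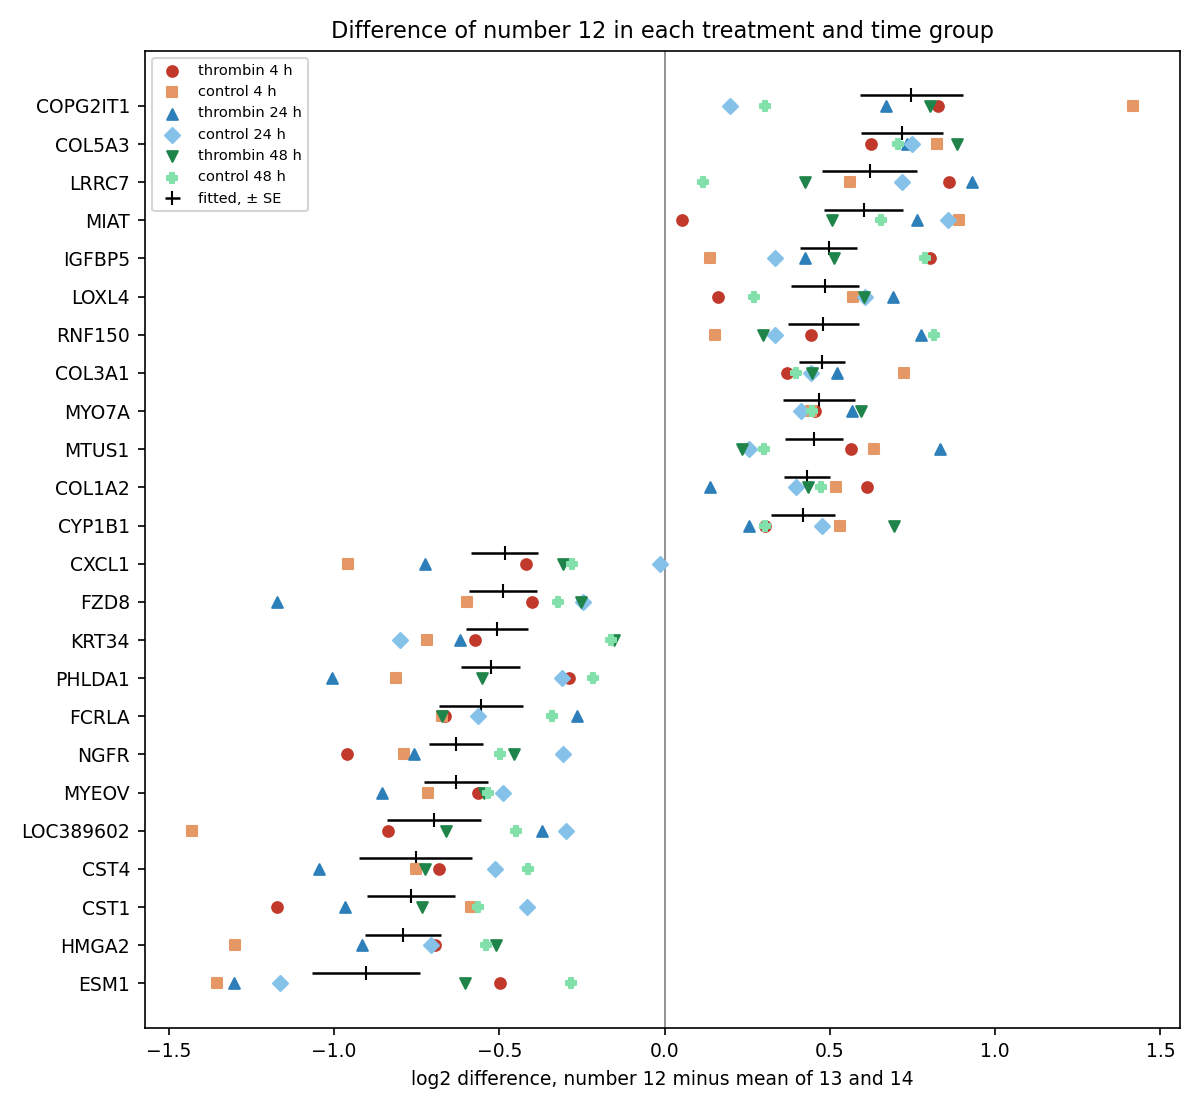
Log2 difference of number 12 minus the mean of 13 and 14 (x axis) in each of the 6 groups for the 12 genes with the largest consistent differences in each direction; black marks are the fitted log2 fold change ± SE. Every point of the upper 12 genes lies right of 0 and every point of the lower 12 lies left of it, with COL5A3 between 0.62 and 0.88 in all 6 groups.

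Collagens were the list with the most members called higher in number 12. Of 20 tested, 4 were called higher and 0 lower, against 0.189% and 0.358% of all genes tested. A positive log2 fold change was seen for 17 of the 20, with a list median of 0.17 against -0.0029 over all genes. The list was chosen with earlier results of these data known. COL3A1, the chain of type III collagen, had 266.3, 324.5 and 427.7 CPM (lowest, median, highest) in number 12 and 157.8, 239.1 and 359.7 CPM in numbers 13 and 14. The ranges overlapped across groups, and within each group number 12 was the highest of its 3 libraries. The log2 fold change was 0.48 ± 0.07 (SE, edgeR adjusted p = 0.002). COL1A2, which encodes the second chain of type I collagen, had 17.8, 21.7 and 25.1 CPM in number 12 and 12.4, 15.2 and 23.2 CPM in 13 and 14 (log2 fold change 0.43 ± 0.07, edgeR adjusted p = 0.00387). It too was highest in number 12 in all 6 groups. On the log2 scale it lay above the mean of 13 and 14 by 0.14 at thrombin 24 h and by 0.61 at thrombin 4 h. At thrombin 24 h it was 24.0 CPM in number 12 and 23.2 CPM in number 13. COL5A3, a chain of type V collagen, had 8.71, 18.0 and 22.9 CPM in number 12 and 3.41, 9.56 and 16.2 CPM in 13 and 14. Its log2 fold change was 0.72 ± 0.12 (edgeR adjusted p = 0.0107).

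COL4A1, a basement membrane chain, was higher by 0.35 ± 0.07 (edgeR adjusted p = 0.0158), with a group difference of 0.02 at control 4 h and 0.61 at control 48 h. Its neighbour COL4A2 was not called, at 0.23 ± 0.06 (edgeR adjusted p = 0.0589). COL1A1, the partner chain of COL1A2, had 2199, 2369 and 2773 CPM in number 12 and 1743, 2079 and 2804 CPM in 13 and 14, and was not called (0.15 ± 0.05, edgeR adjusted p = 0.329). Levels of COL1A1 and COL1A2 are given as CPM and not per length, so they are not compared with each other. COL13A1, a transmembrane collagen outside the list, was lower by 0.43 ± 0.08 (log2 fold change -0.43, edgeR adjusted p = 0.00911). Of 23 matricellular and adhesive glycoprotein genes, 20 had a positive sign but only SPARC, a collagen-binding protein gene, was called (0.26 ± 0.06, edgeR adjusted p = 0.0281). The list median was -0.22 at control 4 h and 0.31 at control 48 h.

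**Figure D2:**
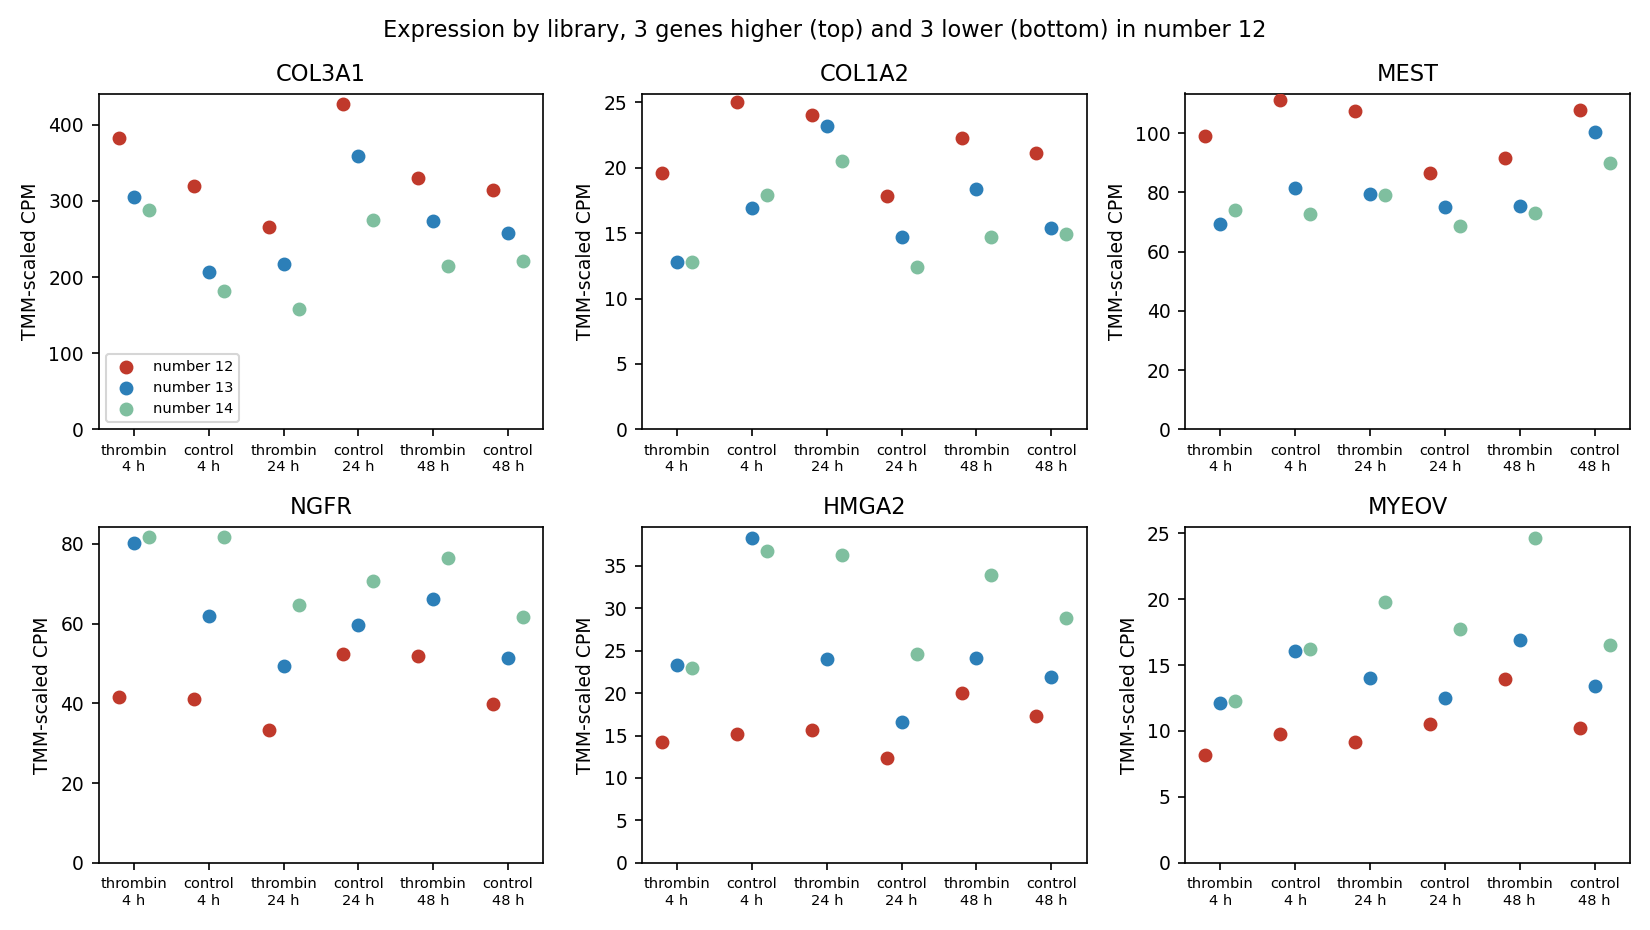
TMM-scaled CPM (y axes) in each of the 18 libraries by group for COL3A1, COL1A2 and MEST (top) and NGFR, HMGA2 and MYEOV (bottom); red is number 12, blue 13 and green 14. The red point is the highest of its 3 in each group in the top row and the lowest in the bottom row, and COL3A1 reaches 427.7 CPM in number 12 at control 24 h.

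LOXL4, a lysyl oxidase-like gene, was higher by 0.49 ± 0.10 on the log2 scale (edgeR adjusted p = 0.0281), and IGFBP5, which encodes an insulin-like growth factor carrier, had 0.50 ± 0.09 (edgeR adjusted p = 0.0113). IGFBP5 had 160.5, 216.3 and 280.2 CPM in number 12 and 86.5, 147.9 and 241.1 CPM in 13 and 14. CXCL12, a chemokine made by stromal cells, was 662.4 to 792.4 CPM in number 12 and 489.6 to 705.8 CPM in 13 and 14 (0.33 ± 0.06, edgeR adjusted p = 0.0107). The Notch ligand gene JAG1, the gap junction gene GJA1 and the gelatinase gene MMP9 were also called higher, by 0.32, 0.28 and 0.35 on the log2 scale. PDGFRB, the receptor by which stellate cells respond to platelet-derived growth factor, was higher by 0.30 ± 0.07 (edgeR adjusted p = 0.0478). PDGFRB was called in only 19 of 37 alternative fits. Genes of like roles were also called lower, among them the laminin chain gene LAMB3 (-0.34), the hyaluronan receptor gene CD44 (-0.26) and the ectonucleotidase gene NT5E (-0.32), named after their values were seen.

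The remaining genes of largest increase were of mixed roles. They were the long noncoding RNA MIAT (0.60 ± 0.12), the postsynaptic scaffold gene LRRC7 (0.62 ± 0.14), the ring finger gene RNF150 (0.48 ± 0.11), the myosin gene MYO7A (0.47 ± 0.11), the microtubule-associated gene MTUS1 (0.45 ± 0.09) and the cytochrome gene CYP1B1 (0.42 ± 0.10). LRRC7 and CYP1B1 were low, at medians of 3.78 and 6.96 CPM in number 12.

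MEST and COPG2IT1, in the imprinted region of chromosome 7, were higher together. MEST had 86.4, 103.3 and 111.2 CPM in number 12 and 68.6, 75.2 and 100.5 CPM in 13 and 14 (log2 fold change 0.37 ± 0.05, edgeR adjusted p = 0.00189). COPG2IT1, a long noncoding RNA 36988 bp away, had 2.98, 3.45 and 6.87 CPM in number 12 and 1.41, 2.33 and 3.26 CPM in 13 and 14 (0.75 ± 0.16, edgeR adjusted p = 0.0265). It lies inside COPG2, which was not called (0.05 ± 0.05, edgeR adjusted p = 0.959), and whether reads on the 2 strands were told apart was not stated. CPA4, a carboxypeptidase gene 161995 bp from MEST, was also called higher (0.27 ± 0.06, edgeR adjusted p = 0.0483). Of 11 imprinted genes tested, MEST alone was called, against 0.547% of all genes tested, and the list median was 0.01. Other called genes within 500 kb of each other were CCND1 and MYEOV on chromosome 11, CST1 and CST4 on chromosome 20 and KRT34 and KRTAP2-3 on chromosome 17, all lower. CARS2 and COL4A1 on chromosome 13 had opposite signs. KRTAP2-3 and the cystatin genes CST1 and CST4 have closely related copies, so their levels are uncertain. The median log2 fold change of each chromosome stayed within 0.02 of 0.

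Among the genes lower in number 12, NGFR had the smallest adjusted p of all genes. It had 33.4, 41.4 and 52.4 CPM in number 12 and 49.4, 65.4 and 81.8 CPM in 13 and 14, and was the lowest of its 3 libraries in every group. Its log2 fold change was -0.63 ± 0.08 (edgeR adjusted p = 0.000981), with group differences from -0.96 at thrombin 4 h to -0.31 at control 24 h. HMGA2, an architectural chromatin protein gene expressed in embryonic and transformed cells, had 12.4, 15.4 and 20.1 CPM in number 12 and 16.6, 24.4 and 38.3 CPM in 13 and 14 (-0.79 ± 0.11, edgeR adjusted p = 0.00248). Its relative HMGA1 was also lower (-0.27 ± 0.06, edgeR adjusted p = 0.0483). MYEOV, a gene named for its overexpression in myeloma, had 8.20, 10.0 and 13.9 CPM in number 12 and 12.1, 16.1 and 24.6 CPM in 13 and 14 (-0.63 ± 0.10, edgeR adjusted p = 0.00248).

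The cyclin D1 gene CCND1, which drives entry into the cell cycle, had 686.8, 895.7 and 1059 CPM in number 12 and 824.9, 1150 and 1605 CPM in 13 and 14. It was lower by 0.41 ± 0.08 (log2 fold change -0.41, edgeR adjusted p = 0.022), while the proliferation marker MKI67 (0.06 ± 0.09) and the inhibitor CDKN1A (-0.09 ± 0.06) were not called. Of 38 G1/S genes and 38 mitosis genes edgeR called 0, with 0 and 3 at an unadjusted p under 0.05 and 0 called in either list by DESeq2; the medians were 0.03 and 0.01. In a list of 10 MAPK output genes, PHLDA1, CCND1, ETV4 and SPRY2 were called lower. The list was written after values had been seen and is therefore only described. Its median was -0.35, and 0.358% of all genes tested were called lower. PHLDA1 had 190.5, 235.8 and 273.2 CPM in number 12 and 214.9, 336.3 and 493.8 CPM in 13 and 14 (-0.53 ± 0.09, edgeR adjusted p = 0.0107). The list median was -0.65 at control 4 h and -0.74 at thrombin 24 h, but -0.06 at control 48 h. SPRY4 (-0.45, edgeR adjusted p = 0.108) and DUSP4 (-0.33, edgeR adjusted p = 0.0607), feedback regulators of the same pathway, were not called. Of 30 immediate early and early response regulators, FOSL1, IER3 and SPRY2 were called lower, 10 had a positive sign and the median was -0.11. EGR1 and EGR3, in that list but not in the list of 10, were not called and had positive differences in all 6 groups. These were 0.12 to 1.73 for EGR1 and 0.18 to 0.95 for EGR3.

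Proteases, their inhibitors and cytokines went in both directions. Over all genes tested, 0.547% were called. Of 23 matrix proteases and inhibitors, MMP9 was called higher and MMP1 and ADAMTS1 lower, and 11 had a positive sign, with a median of -0.0023. Of 12 chemokines, CXCL12 was called higher and CXCL1 lower, and of 16 interleukin genes and receptors of the IL-6 and IL-1 families only IL1B was called, with a median of -0.01. SERPINB2, an inhibitor of plasminogen activators, had 0.601, 1.07 and 3.14 CPM in number 12 and 0.462, 2.24 and 9.65 CPM in 13 and 14 (-1.17 ± 0.19, edgeR adjusted p = 0.00387). The collagenase gene MMP1 had 21.99, 27.1 and 40.2 CPM in number 12 and 30.1, 57.1 and 112.7 CPM in 13 and 14 (-1.05 ± 0.22, edgeR adjusted p = 0.0484). Number 12 was the lowest of its 3 libraries in 5 of the 6 groups for each of these genes. PLAUR, the urokinase receptor gene, and ADAMTS1, a secreted protease gene, were lower by 0.29 and 0.45 on the log2 scale. IL1B, an inflammatory cytokine gene, was lower by 0.59 ± 0.11 (edgeR adjusted p = 0.0158), and the neutrophil chemokine gene CXCL1 by 0.48 ± 0.10 (edgeR adjusted p = 0.0265), although the CXCL1 difference at control 24 h was -0.01. Of 22 NF-kappa-B targets, only TNFAIP3 was called, and it was lower, while 13 had a positive sign and the median was 0.04.

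ESM1, which encodes endocan, had 2.74, 8.65 and 15.3 CPM in number 12 and 5.08, 12.0 and 45.5 CPM in 13 and 14. It was lower in all 6 groups, by -0.28 at control 48 h to -1.36 at control 4 h, and the log2 fold change was -0.90 ± 0.16 (edgeR adjusted p = 0.0158). The salivary cystatin genes CST1 and CST4 (-0.77 ± 0.13 and -0.75 ± 0.17), the long noncoding RNA LOC389602 (-0.70 ± 0.14), FCRLA (-0.56 ± 0.13) and the keratin gene KRT34 (-0.51 ± 0.09) completed the largest decreases.

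Of the 46 gene lists, the Wnt list had the largest share called, 4 of 15, with 1 higher and 3 lower and a median of -0.06. Over all genes tested, 0.189% were called higher and 0.358% lower. The lists were chosen with earlier results of these data known. DKK1 and SFRP1, both secreted Wnt antagonists, were lower by 0.31 ± 0.05 and 0.27 ± 0.05 (edgeR adjusted p = 0.00911 and 0.0164), and the receptor gene FZD8 by 0.49 ± 0.10 (edgeR adjusted p = 0.0281). WNT5A, a non-canonical ligand gene, was higher by 0.26 ± 0.06 (edgeR adjusted p = 0.0483). DKK1 had 186.9, 216.9 and 250.7 CPM in number 12 and 211.0, 263.3 and 328.3 CPM in 13 and 14. The called members therefore did not move in 1 direction.

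Promoter sequences of the called genes were searched for short motifs. Whether a shared motif had a part in the differences was not tested. RefSeq promoters of GRCh38.p14 (250 bases before to 50 after the start) were matched for 42 of the 84 genes. Both strands were searched for TATAAA (the TATA box), TGANTCA (AP-1), CCGGAAGT (ETS) and GGGCGG (GC box). TATAAA was found in 7 of the 27 promoters of lower genes (25.9%), in 1 of 15 of higher genes (6.67%) and in 5.71% of 8333 promoters of genes tested. TGANTCA was in 2 of 27, 2 of 15 and 4.76%, and CCGGAAGT in 0 of 27, 0 of 15 and 9.22%. GGGCGG was in 51.9% of lower, 53.3% of higher and 70.7% of all. Shown are 3 of the 7 promoters of lower genes with TATAAA and that of COL5A3, a higher gene with neither TATAAA nor TGANTCA. These were picked by hand, and no promoter of a lower gene without TATAAA is shown. Capitals mark TATAAA and TGANTCA, which did not overlap in these promoters. The TATAAA begins 32, 30 and 30 bases before the start in ESM1 (chr5:54985544-54985843, minus strand), SERPINB2 (chr18:63887455-63887754, plus strand) and DKK1 (chr10:52314031-52314330, plus strand); COL5A3 is at chr19:10010455-10010754, minus strand.
ESM1: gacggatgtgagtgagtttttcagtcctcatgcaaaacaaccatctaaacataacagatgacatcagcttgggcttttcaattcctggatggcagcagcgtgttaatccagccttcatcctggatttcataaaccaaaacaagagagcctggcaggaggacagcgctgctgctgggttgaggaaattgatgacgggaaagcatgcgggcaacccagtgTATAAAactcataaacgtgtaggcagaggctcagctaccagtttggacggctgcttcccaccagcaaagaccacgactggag
SERPINB2: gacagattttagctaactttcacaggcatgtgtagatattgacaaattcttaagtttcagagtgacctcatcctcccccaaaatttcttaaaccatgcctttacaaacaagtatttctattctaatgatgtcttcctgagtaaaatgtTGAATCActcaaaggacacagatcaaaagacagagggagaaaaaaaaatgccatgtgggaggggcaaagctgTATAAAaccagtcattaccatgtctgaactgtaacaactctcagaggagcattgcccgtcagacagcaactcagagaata
DKK1: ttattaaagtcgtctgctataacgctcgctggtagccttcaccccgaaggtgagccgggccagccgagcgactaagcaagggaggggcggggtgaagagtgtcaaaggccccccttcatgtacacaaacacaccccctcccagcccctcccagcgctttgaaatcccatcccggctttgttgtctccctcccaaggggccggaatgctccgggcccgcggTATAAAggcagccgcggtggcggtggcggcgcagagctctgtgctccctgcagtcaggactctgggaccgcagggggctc
COL5A3: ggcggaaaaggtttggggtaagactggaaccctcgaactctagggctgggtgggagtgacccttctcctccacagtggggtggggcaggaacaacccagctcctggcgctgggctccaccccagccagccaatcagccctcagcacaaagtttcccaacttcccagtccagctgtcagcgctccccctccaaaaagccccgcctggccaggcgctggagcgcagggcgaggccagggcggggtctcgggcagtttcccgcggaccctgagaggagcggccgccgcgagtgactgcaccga

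The stellate cell markers gave mixed values. Of 17 tested, 3 were called higher (COL3A1, COL1A2 and PDGFRB) and 1 lower (NGFR), with a median of 0.03. Over all genes tested, the shares called higher and lower were 0.189% and 0.358%. VIM, the intermediate filament gene, had 3129, 3294 and 3483 CPM in number 12 and 3449, 3708 and 4079 CPM in 13 and 14; it was below both in all 6 groups but was not called (-0.18 ± 0.05, edgeR adjusted p = 0.084). ACTA2 (0.15 ± 0.08), TAGLN (0.21 ± 0.06), PDGFRA (-0.17 ± 0.17), DES (-0.72 ± 0.21) and TIMP1 (-0.08 ± 0.05) were not called. F2R, which encodes the main thrombin receptor, was at 205.6 CPM on average in number 12 and 211.2 and 201.4 CPM in numbers 13 and 14 (0.00 ± 0.05). edgeR called 0 of 25 SRF and MRTF targets, 35 interferon-stimulated genes, 25 cholesterol genes, 62 ribosomal protein genes and 29 ATF4 genes, with 2, 5, 0, 4 and 8 of them at an unadjusted p under 0.05. DESeq2 called 1 SRF and MRTF target and 1 ATF4 gene of these lists. Of the ATF4 genes 3 of 29, and of the heat shock genes 2 of 19, had a positive sign, with medians of -0.08 and -0.06. In bulk RNA, fewer cells of a type and less RNA per cell cannot be told apart.

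**Figure D3:**
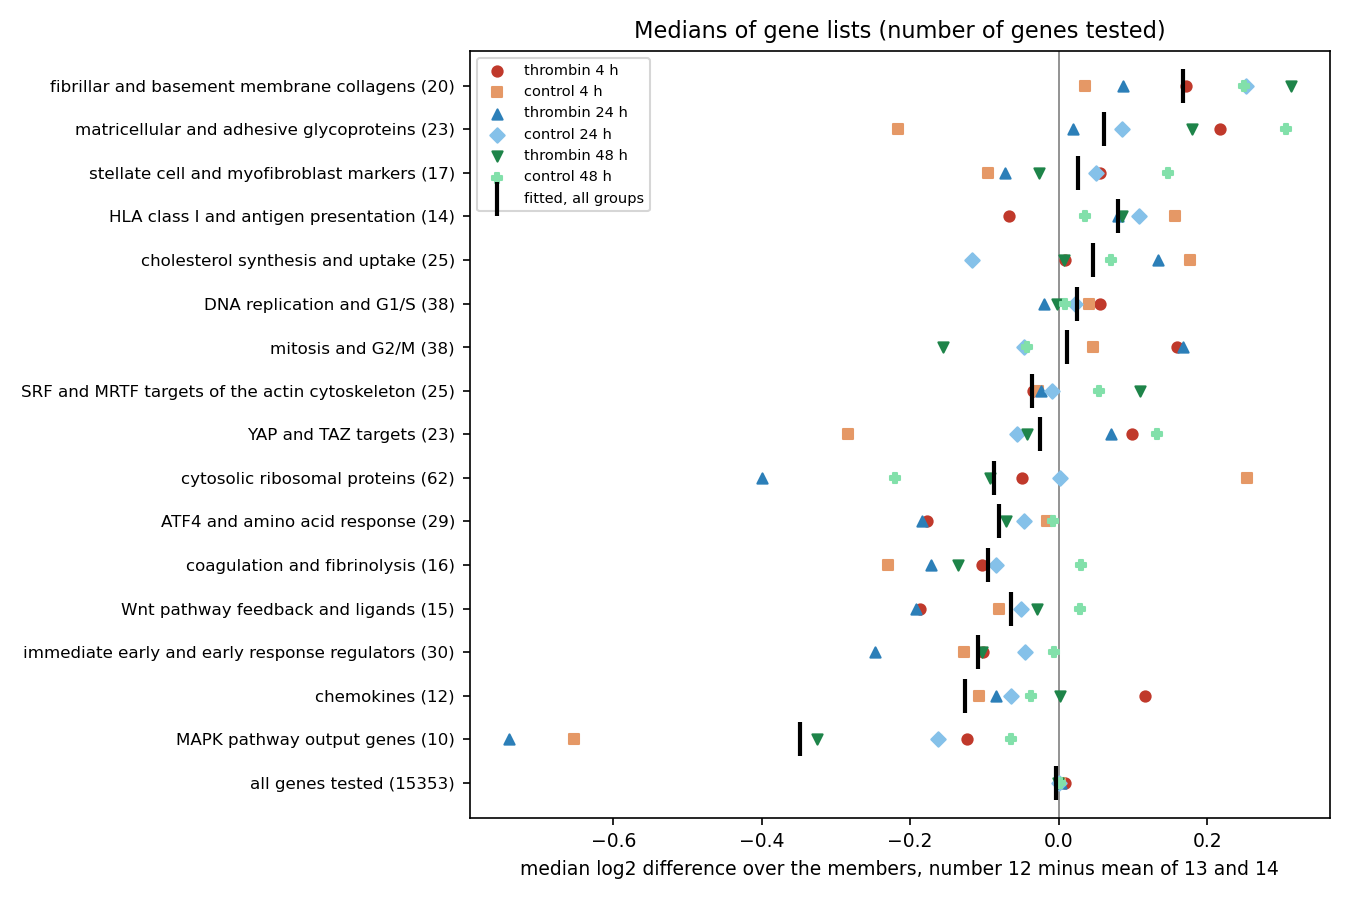
Median log2 difference of number 12 minus the mean of 13 and 14 over the members of 16 gene lists and all genes tested (x axis), in each of the 6 groups (symbols) and in the fit over all groups (black bar). Collagens lie right of 0 in all 6 groups, the MAPK output list lies left of 0 in all 6, and the ribosomal protein list ranges from -0.40 at thrombin 24 h to 0.25 at control 4 h. The MAPK output list was written after values had been seen.

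The numbers were also compared in pairs; the pairs share libraries with each other and with the comparison above. Number 12 against 13 gave 5 calls (0.0326%), with COL3A1 and MEST higher (0.013%) and CST1, HMGA2 and NGFR lower (0.0195%). Number 12 against 14 gave 145 calls (0.944%), 70 higher (0.456%) and 75 lower (0.489%). By the naming rule, COL5A3 (1.03), HNMT (1.03) and COPG2IT1 (0.80) were its largest increases and MMP1 (-1.27), SERPINB2 (-1.25) and HAS2 (-1.10) its largest decreases. Number 13 against 14 gave 0 calls with edgeR (0%), with 608 genes at an unadjusted p under 0.05 and 6 called by DESeq2. This does not show that 13 and 14 were alike. Of the 84 genes called for number 12, number 13 lay on the number 12 side of 14 for 72 (85.7%). Over all genes tested this share was 56.1%. COL3A1 averaged 340.0 CPM in number 12, 269.9 in 13 and 222.7 in 14, and NGFR averaged 43.4, 61.4 and 72.8 CPM in the same order. For the 29 genes called higher, the median log2 fold change was 0.33 for 12 over 13, 0.48 for 12 over 14 and 0.17 for 13 over 14, and for the 55 called lower it was -0.33, -0.47 and -0.13.

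**Figure D4:**
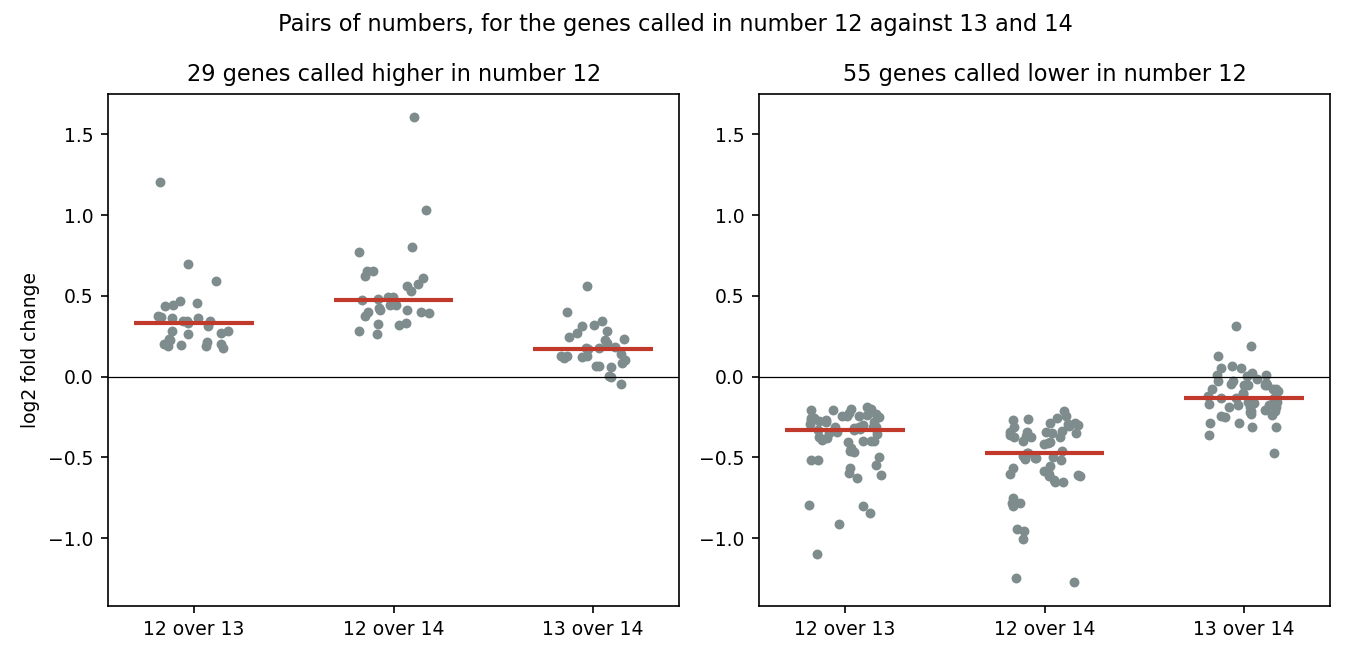
Log2 fold change (y axis) of 12 over 13, 12 over 14 and 13 over 14 for the 29 genes called higher (left) and the 55 called lower (right) in number 12; points are genes and red lines medians. The medians are 0.33, 0.48 and 0.17 on the left and -0.33, -0.47 and -0.13 on the right.

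The difference of number 12 also varied between groups. In a model with a separate effect for each group, the effect differed for 487 genes (edgeR adjusted p under 0.05; 3.17%). That count was 1 without control 4 h replicate 12 and 2036 without control 48 h replicate 13. Within single groups, 400 genes were called at control 4 h (2.61%), 41 higher (0.267%) and 359 lower (2.34%), and 28 at thrombin 24 h (0.182%), 5 higher (0.0326%) and 23 lower (0.15%). edgeR called 0 (0%) in each of the other 4 groups, with 2937 genes at an unadjusted p under 0.05 at thrombin 4 h, 777 at control 24 h, 1361 at thrombin 48 h and 1100 at control 48 h. DESeq2 called 96 at thrombin 4 h and 0 in the other 3. These tests set 1 library against 2 and assume that the lone library varies like the others. At control 4 h the rule for named genes gave GASK1B (1.88), COPG2IT1 (1.47) and the GTPase gene RRAD (1.24) as the largest increases. The largest decreases there were RGS7BP (-1.89), THBD (-1.67), which encodes thrombomodulin, and TBX20 (-1.56). Several of these genes were low. Over all 18 libraries RGS7BP was at 0.74 to 5.56 CPM, THBD at 0.74 to 4.46, TBX20 at 1.30 to 4.38 and GASK1B at 0.45 to 3.94. At thrombin 24 h the largest increases were LOC100129434 (1.13), the guanylate-binding protein gene GBP4 (0.91) and NCR3LG1 (0.86). The largest decreases were G0S2 (-1.47), ID1 (-1.13) and the sphingosine phosphate receptor gene S1PR1 (-1.11). Control 4 h calls were 40 without its replicate 13 and 133 without its replicate 14, and thrombin 24 h calls were 0 without its replicate 14. Without control 48 h replicates 13 and 14 in turn, they were 947 and 951 at control 4 h and 154 and 154 at thrombin 24 h. At thrombin 24 h they were also 186 without its replicate 13, and 13 and 13 without thrombin 4 h replicates 13 and 14. With upper-quartile scaling, 67 of 246 calls at control 4 h were higher.

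Genes whose effect differed between groups had unlike base composition. The 187 that were higher in number 12 at control 4 h had a median transcript GC content of 63.5% and length of 1736 bases. The 300 that were lower there had 39.6% and 7196 bases, against 49.0% and 3280 bases over all genes tested. Each library's deviation from its group mean was related to GC content across genes, with a Spearman rho from -0.69 (number 12 at thrombin 4 h) to 0.61 (number 13 at thrombin 24 h), where genes are not independent replicates. With a GC slope for each library in the fit, an alternative chosen after the data were seen, 0 genes differed between groups by edgeR, and with GC and length slopes 13 did. The call of number 12 against 13 and 14 then covered 162 and 419 genes, 75 and 72 of them among the 84. IL1B and TNFAIP3 were the only genes called both for number 12 over all groups and for a difference between groups. Across 12907 genes the group differences of number 12 had Pearson r from -0.345 to 0.503 between pairs of groups; the points share the libraries' deviations in GC content. The part of base composition in single genes was not tested.

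**Figure D5:**
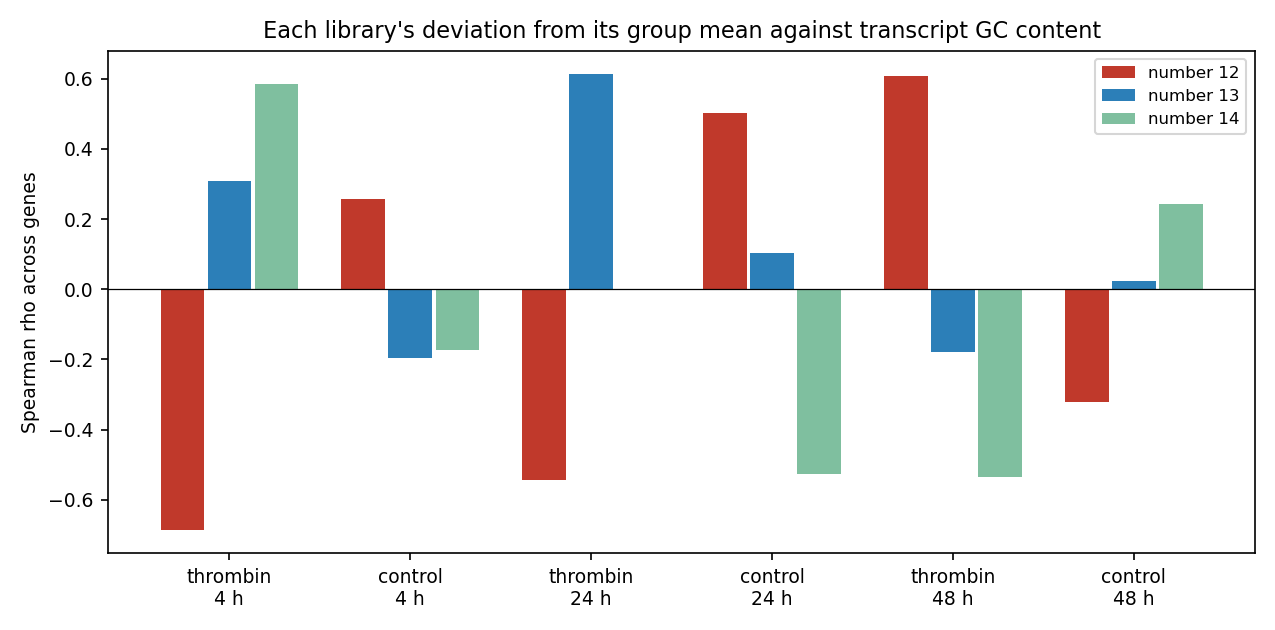
Spearman rho across genes (y axis) between each library's deviation from its group mean and transcript GC content, for numbers 12 (red), 13 (blue) and 14 (green) in each group. Number 12 is at -0.69 at thrombin 4 h and positive in 3 of the 6 groups, so the sign differs from group to group.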

How the data were processed

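LX-2 RNA was measured as gene-level read counts in 18 libraries; the authors deposited whole-number counts for each gene symbol, which were not normalized as far as the values show. The submitters' processing notes name SAMtools 1.21, DESeq2, Bowtie2 2.5.4 and cutadapt 4.9, and the build GRCh38 (hg38). The counter, annotation and strand setting are not given in the sources used here, so overlapping genes and near-identical copies are uncertain.

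Counts were fitted with edgeR 4.0.16 in R 4.3.3 (filterByExpr with minimum count 10 and total 15, which kept 15353 of 28278 symbols; TMM; robust quasi-likelihood; two-sided; Benjamini-Hochberg over all genes; biological coefficient of variation 8.85%). The model held the 6 groups and number 12. Called means an adjusted p under 0.05. Levels are TMM-scaled CPM, except the marker levels and summed marker lists that check the cell type, which are CPM of the library total. DESeq2 1.42.0 and limma 3.58.1 voom were alternatives. The depth limits precision through the counts of low genes.

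Named genes were the 12 largest consistent calls in each direction with a mean of at least 1 CPM, up to 4 called members of lists with at least 25% called, 13 anchors and the top changes of the other comparisons; other genes were named after their values were seen. The members and the 46 gene lists were chosen with earlier results of these data known. RefSeq gave positions for 26998 symbols, and GENCODE 29 gave transcript GC and length for 96.2% of tested genes. On simulated data (15270 genes, 200 changed), number 12 against 13 and 14 recovered 34%, 90%, 98% and 100% of genes changed 1.2-, 1.5-, 2- and 4-fold, and 6.94% of calls were false. The simulated counts were drawn independently around group means, without library deviations linked to GC content or length. They gave 1 call for a difference between groups, against 487 in the data. The simulated rates therefore cannot be taken as those of the data.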

Additional observations from a re-analysis of the deposited data

Results flagged for a closer look

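The effect of number 12 differed between the 6 groups for 487 genes by the interaction test of edgeR, a count that ranged from 1 to 2036 when 1 library at a time was left out. Among the genes named for it, the edgeR adjusted p was 0.0152 for MCRIP1, EMC9, MXD3, NAA38 and AURKAIP1, 0.0168 for ATP13A3, 0.0171 for TMEM160 and HMG20B, and 0.0299 for ID1. MXD3, a MYC-antagonist gene, differed by -0.44 at thrombin 4 h and 0.53 at control 4 h, by -0.34 at thrombin 24 h and 0.28 at control 24 h, and by 0.47 at thrombin 48 h and -0.18 at control 48 h. ATP13A3, a transporter gene, had the reverse signs in those groups. ID1, an inhibitor of DNA binding, was at -1.12 at thrombin 24 h and -0.67 at control 4 h, and between -0.13 and 0.18 in the other 4 groups. The Spearman rho of the number 12 library's deviation with GC content was -0.69 at thrombin 4 h, 0.26 at control 4 h and -0.54 at thrombin 24 h. At control 24 h, thrombin 48 h and control 48 h this rho was 0.50, 0.61 and -0.32. MXD3 had the same signs as the rho and ATP13A3 the reverse, while ID1 had neither pattern. The part of GC content in single genes was not tested.

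Of 108 sets of 6 group differences, 4 held a group far from the others by a gap test that flags about 1 set in 20 by chance. TIMP1 was at -0.25 at thrombin 24 h. The list median of matrix proteases and inhibitors was -0.20 and that of integrin subunits -0.27 at control 4 h. The list median of thrombin receptors and thrombin-binding proteins was -0.33 at thrombin 48 h.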

How the results depend on the processing

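The numbers 12, 13 and 14 were not taken as pairing the libraries. The rule asked that deviations from the group mean correlate over 0.1 in every pair with the same number, which was not met. Since these deviations were related to GC content across genes, the correlations cannot decide whether the numbers pair the libraries. The correlation was over 0.1 in 6 of 15 pairs numbered 12, 1 of 15 numbered 13 and 8 of 15 numbered 14, against 22 of 90 pairs of unlike numbers, and 8 of 18 libraries correlated best with their own number. With the number as a replicate block, the thrombin calls were 1829 at 4 h, 2678 at 24 h and 1 at 48 h, against 1813, 2700 and 0 without it.

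All 84 genes called for number 12 kept their direction in every alternative that tested them. The alternatives reuse the libraries by which the 84 were chosen, so a kept direction is not separate support. NGFR was called in 36 of 37 alternatives and COL1A2, COL3A1, HMGA2, MEST and MYEOV in 35. In contrast, CST4 was called in 13, MMP1, FCRLA and MYO7A in 14 and WNT5A in 15. LRRC7 and CYP1B1 were called in 16, and PDGFRB and RNF150 in 19. The calls moved by over 1.5 times as follows, and the cause was not tested. Number 12 against 13 and 14 (84) gave 238 with no low-count filter, 133 with DESeq2, 0 without the treatment and time block, 162 with a GC slope, 419 with GC and length slopes and 4 without the libraries numbered 14. It gave 19, 21, 33, 13 and 24 without the groups control 4 h, thrombin 4 h, control 24 h, thrombin 24 h and thrombin 48 h. The consistent genes (58) were 0 without the block, 102 with GC and length slopes and 3 without number 14, and 18, 19, 30, 12 and 20 without those same groups in the same order. Number 12 against 13 (5) gave 71 with no filter, 17 with DESeq2, 13 with a GC slope and 131 with GC and length slopes, and 1, 0, 3, 0, 8 and 0 without control 4 h, thrombin 4 h, control 24 h, thrombin 24 h, control 48 h and thrombin 48 h. Number 12 against 14 (145) gave 315 with no filter, 329 with a GC slope and 856 with GC and length slopes, and 73, 47 and 58 without control 24 h, thrombin 24 h and thrombin 48 h. Number 13 against 14 (0) gave 9 with no filter, 6 with DESeq2, 7 with a GC slope, 36 with GC and length slopes and 4 without thrombin 4 h.

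The difference between groups (487) gave 1784 with no filter, 155 with non-robust dispersion, 0 with a GC slope and 13 with GC and length slopes, and 0, 0, 1771 and 148 without control 4 h, thrombin 4 h, control 48 h and thrombin 48 h. In control 4 h (400) the calls were 246 with upper-quartile scaling, 712 with no filter, 24 with a GC slope, 23 with GC and length slopes and 844 without control 48 h; higher calls were 67 of the 246, against 41 of 400. In thrombin 4 h (0) they were 382 with no filter, 96 with DESeq2, 1 with a GC slope, 9 with GC and length slopes, and 1, 84 and 430 without control 4 h, thrombin 24 h and control 48 h. In thrombin 24 h (28) they were 279 with no filter, 63 with DESeq2, 126 with GC and length slopes, and 17 and 145 without thrombin 4 h and control 48 h. With no filter they were 3 in control 24 h, 21 in control 48 h and 9 in thrombin 48 h, where the main count was 0. Thrombin against control gave 4065 at 24 h with GC and length slopes. At 48 h it gave 1 with upper-quartile scaling, 50 with no filter, 14 with DESeq2, 4 with a GC slope, 33 with GC and length slopes and 2 without thrombin 24 h.

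Leaving out 1 library at a time, the calls ranged from 7 to 93 for number 12 against 13 and 14, 7 to 70 for the consistent genes, 1 to 9 for 12 against 13, 57 to 167 for 12 against 14, 0 to 3 for 13 against 14 and 1 to 2036 for the difference between groups. By group they ranged from 40 to 951 at control 4 h, 0 to 432 at thrombin 4 h, 0 to 186 at thrombin 24 h and 0 to 549 at control 48 h, and were 0 to 0 at control 24 h and thrombin 48 h. Thrombin against control ranged from 840 to 2397 at 4 h, 1731 to 2950 at 24 h and 0 to 4 at 48 h. The difference between groups gave 1, 6 and 43 without control 4 h replicates 12, 13 and 14, 11, 28 and 23 without thrombin 4 h replicates 12, 13 and 14, and 939 without thrombin 24 h replicate 14. It gave 2036 and 1301 without control 48 h replicates 13 and 14, 232 and 35 without thrombin 48 h replicates 13 and 14 and 88 without control 24 h replicate 14. The difference between groups could not be fitted without the libraries numbered 13 or 14. Low genes are limited by depth: SERPINB2 and COPG2IT1 were at a few CPM.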
